A study of Mus musculus with 18 samples.

Results

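The claudin family was followed through the colon RNA of naive mice, mice with colitis-associated cancer (CAC) and mice with CAC that carried a *Cldn2* transgene. The members were the 10 claudin genes *Cldn1*, *Cldn2*, *Cldn3*, *Cldn4*, *Cldn7*, *Cldn8*, *Cldn12*, *Cldn15*, *Cldn18* and *Cldn23*, found by symbol among the 47729 genes of the count table, which holds 25 other claudin genes. RNA-Seq was done on 9 mice of C57BL/6 background in groups of 3. Naive WT mice (mice 1 to 3) were WT mice labelled Control, WT CAC mice (4 to 6) were WT mice that received the carcinogen azoxymethane (AOM, 10 mg/kg) followed by 2.5% dextran sulfate sodium (DSS, which injures the colonic epithelium) for 3 cycles, and *Cldn2*TG CAC mice (7 to 9) were Claudin-2TG mice given AOM-DSS as well. In the transgenic line the villin promoter, which is active in the epithelium of the intestine, drives *Cldn2*. No naive *Cldn2*TG group was analysed here, so that a difference between *Cldn2*TG CAC and naive WT colon holds the treatment and the transgene together. The counts do not tell reads of the transgene from those of the endogenous *Cldn2* gene. The sources used here do not give the transgene's sequence, so how much of its RNA the *Cldn2* values hold is not known. Since the protocol text of the control samples names AOM and DSS as well, naive mice were told by their treatment label, which reads Control. Age was not given in the labels.

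Claudins are membrane proteins of the tight junction, the belt that joins epithelial cells near their apical edge. Their extracellular loops pair with those of the neighbouring cell, and the mix of claudins sets which ions and molecules pass between cells. Claudins that tighten this path are called sealing, and those that line a channel through it are called pore-forming. Claudin-2 and claudin-15 form channels for cations and water. Claudin-1, claudin-3, claudin-4, claudin-8 and the stomach and lung protein claudin-18 are counted as sealing, and the roles of claudin-7, claudin-12 and claudin-23 in the colon are less settled.

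Each mouse gave 14142711 to 22262546 counts on genes. Values are CPM, the counts of a gene scaled to a common library size, with TMM normalisation over the 9 mice, and a count of 0 allows up to 3 counts, or 0.13 to 0.222 CPM in these mice, counting error only. Naive WT mouse 1 stood apart in sex, with *Xist*, which marks female cells, at 214 CPM against at most 0.203 CPM in the other 8 mice. Where leaving it out ended the call of a claudin, the adjusted p without it is given. WT CAC mouse 4 also stood apart. Over all genes, the chi-square per degree of freedom was 66.3 and 65.3 between mouse 4 and mice 5 and 6, against 31.9 between mice 5 and 6 and at most 25.1 within the other groups. Without mouse 4, edgeR called 4080 genes in place of 2310 in WT CAC against naive WT, and 2894 in place of 1421 between both treated groups. The tissue was rich in epithelial RNA in every mouse. Markers of epithelium, 7 in all (*Epcam*, *Cdh1*, *Vil1*, *Krt8*, *Krt18*, *Krt19* and *Cdhr5*) summed to 14943 to 16263 CPM in naive WT mice, 14619 to 18036 CPM in WT CAC mice and 16039 to 19510 CPM in *Cldn2*TG CAC mice. In bulk tissue, fewer cells of a type and less RNA per cell cannot be told apart.

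Per kilobase of gene length, *Cldn3* and *Cldn7* were the most abundant claudin RNAs in all 3 groups and *Cldn1* and *Cldn18* the least. In naive WT colon the mean levels were 549 CPM per kilobase for *Cldn3*, 529 for *Cldn7*, 146 for *Cldn8*, 69.7 for *Cldn2*, 69.6 for *Cldn4*, 44.2 for *Cldn23*, 41.8 for *Cldn15* and 26.6 for *Cldn12*. Neighbours in this order had overlapping ranges over the 3 mice, except that *Cldn8* lay below *Cldn7* and above *Cldn2* without overlap. *Cldn1* followed at 0.123 CPM per kilobase. In WT CAC colon *Cldn8* had come down to 37.2 CPM per kilobase, beside *Cldn2* at 38.9 and *Cldn15* at 36.3, with overlapping ranges, and *Cldn4* followed *Cldn7* with a mean of 146 and a range of 49.3 to 234. With the transgene, *Cldn8* stood at 84.9 CPM per kilobase and *Cldn2* next at 67.9, again with overlapping ranges. *Cldn3* and *Cldn7* together held 66.4% to 87.3% of the summed level of the 10 members across the 9 mice.

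**Figure D1:**
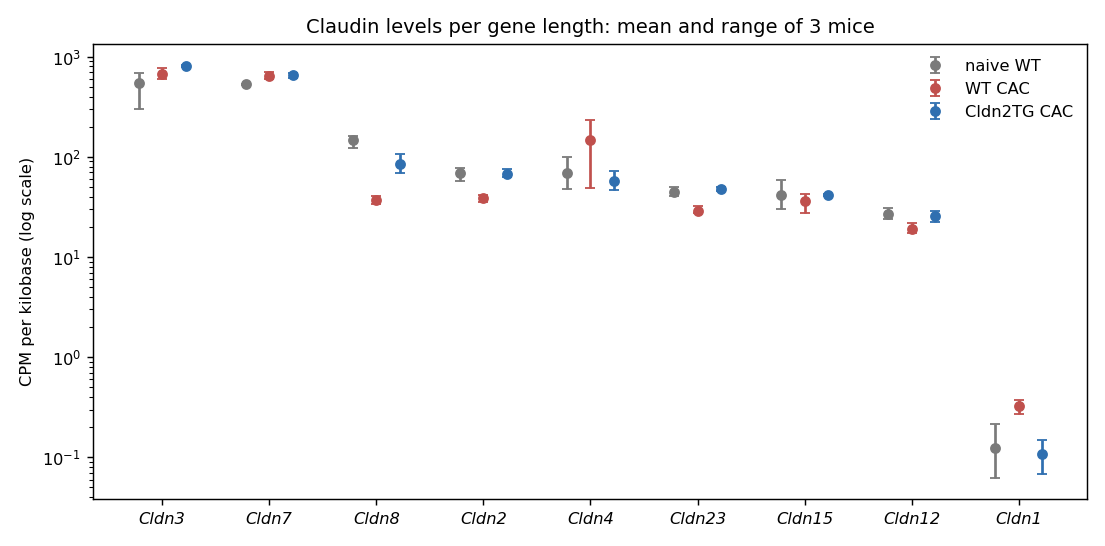
RNA level of 9 claudin genes in CPM per kilobase of gene length, on a log axis, in naive WT, WT CAC and Cldn2TG CAC colon. Points are means and bars the lowest and highest of 3 mice, and Cldn18, at 0 in most mice, is left out. Cldn3 and Cldn7 lie highest in each group, and Cldn1 lies far below the others. The WT CAC points of Cldn8, Cldn2, Cldn23, Cldn12 and Cldn15 lie below those of both other groups, with overlapping bars for Cldn15.

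The promoters of 3 claudins are shown because their genes behaved differently in the colon: *Cldn2*, whose RNA fell in WT CAC mice and whose own promoter the transgene does not use, and *Cldn3* and *Cldn4*, which lie 39.28 kb apart on chromosome 5 and whose RNAs varied in different mice. The sequences come from RefSeq on GRCm38.p6 and run from 250 bases before to 50 bases after the start site, at chrX:139800558-139800857 on the plus strand for *Cldn2*, chr5:134985964-134986263 on the plus strand for *Cldn3* and chr5:134946885-134947184 on the minus strand for *Cldn4*. Capitals mark matches, on either strand, to the letters of 5 motifs that are usually named for what binds them. They are TATAAA for the TATA box and, for the GC box, GGGCGG. CDX factors are known for TTTATG and the SNAI and ZEB repressors for the E-box CAGGTG. The letters used for AP-1 were TGANTCA.

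Cldn2: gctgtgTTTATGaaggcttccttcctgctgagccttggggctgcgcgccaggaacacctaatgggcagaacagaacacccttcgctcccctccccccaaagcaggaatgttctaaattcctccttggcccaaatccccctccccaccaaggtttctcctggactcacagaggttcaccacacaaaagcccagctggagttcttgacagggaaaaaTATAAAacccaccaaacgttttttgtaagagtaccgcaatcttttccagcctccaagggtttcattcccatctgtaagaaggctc

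Cldn3: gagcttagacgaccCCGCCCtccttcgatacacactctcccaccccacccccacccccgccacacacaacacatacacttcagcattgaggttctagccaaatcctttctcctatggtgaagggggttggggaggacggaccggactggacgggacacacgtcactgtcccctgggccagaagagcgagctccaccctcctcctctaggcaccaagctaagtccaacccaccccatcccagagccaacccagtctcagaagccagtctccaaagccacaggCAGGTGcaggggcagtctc

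Cldn4: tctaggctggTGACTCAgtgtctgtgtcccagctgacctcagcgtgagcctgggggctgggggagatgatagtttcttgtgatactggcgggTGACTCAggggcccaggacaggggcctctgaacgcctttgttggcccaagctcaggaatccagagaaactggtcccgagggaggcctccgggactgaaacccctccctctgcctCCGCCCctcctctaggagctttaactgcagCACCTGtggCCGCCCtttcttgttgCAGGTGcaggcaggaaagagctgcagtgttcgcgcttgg

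Of the 10 members, 8 had a RefSeq promoter in the table used. The *Cldn2* window held the TATA box with its first base at position -35 and the CDX letters at -244, counted from the start site, and neither a GC box nor an AP-1 match. The *Cldn4* window held the GC box at -44 and -5, the E-box at -14 and 12, and the AP-1 letters at -240 and -158, none of which overlapped. The *Cldn3* window held the GC box at -236 and the E-box at 32. Among all 32851 promoter windows, 13.6% held the TATA box, 11.9% the CDX letters, 35.7% the GC box, 20.2% the E-box and 7.81% the AP-1 letters. The HNF1 motif, the TCF/LEF letters CTTTGA and the STAT letters TTCNNNGAA, which 0.399%, 16.0% and 8.30% of all windows held, were in none of these 3. A match of letters is not a measured binding site.

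Each pair of groups was compared by the quasi-likelihood test of edgeR (two-sided), with Benjamini-Hochberg adjustment over all genes tested, and a gene was called at an adjusted p under 0.05. The 3 comparisons share groups and are therefore not independent. In WT CAC against naive WT colon, 9 of the 10 members passed the filter on low counts. *Cldn2*, *Cldn8* and *Cldn23* were called lower and none was called higher, where 6.92% of all genes tested were called lower, 8.04% higher and 15.0% in either direction. At an unadjusted p under 0.05, 2 members were higher and 4 lower, and DESeq2 called 1 higher and 4 lower. Between *Cldn2*TG CAC and WT CAC colon, 9 members were tested, of which *Cldn2*, *Cldn8* and *Cldn23* were called higher with the transgene, beside 2.19% of all genes called higher, 7.35% lower and 9.54% in either direction. Here 4 were higher and 2 lower at an unadjusted p under 0.05, and DESeq2 called 3 higher and 0 lower. For *Cldn2*TG CAC against naive WT colon, 8 members were tested, *Cldn7* was called higher and *Cldn8* lower, and of all genes 3.92% were called higher, 6.07% lower and 10.0% in either direction, with 1 member higher and 1 lower by each of the other counts. Over all genes tested, DESeq2 called 3220 of 15437, 2072 of 14888 and 1794 of 15013 in these comparisons, in the order given. The percentages of all genes, here and beside the lists below, are of edgeR calls. Shares of all genes at an unadjusted p under 0.05 are not given, so those counts have no background beside them. The median log2 fold change of the members tested was -0.18, 0.24 and -0.01 in these comparisons, against 0.02, 0.01 and 0.00 over all genes tested. These counts rest on few mice. In WT CAC against naive WT, 2 members were called without the female mouse 1, and 1 without mouse 2 or mouse 3, in fits that called 631, 135 and 404 of all genes in place of 2310. With the transgene set against WT CAC, 1 member was called without mouse 9 and 0 without mouse 8, when edgeR called 108 and 58 of all genes in place of 1421. Against naive WT, 0 of the *Cldn2*TG CAC calls held without mouse 1, 2 or 8, where 958, 1104 and 615 genes were called in place of 1501, and 1 member was called without mouse 3, 7 or 9, with 525, 1383 and 813 genes. What these losses share with those over all genes was not tested. *Cldn1* passed the filter only through the WT CAC mice, where it was high, so its tests are given with its values and are not read as calls.

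**Figure D2:**
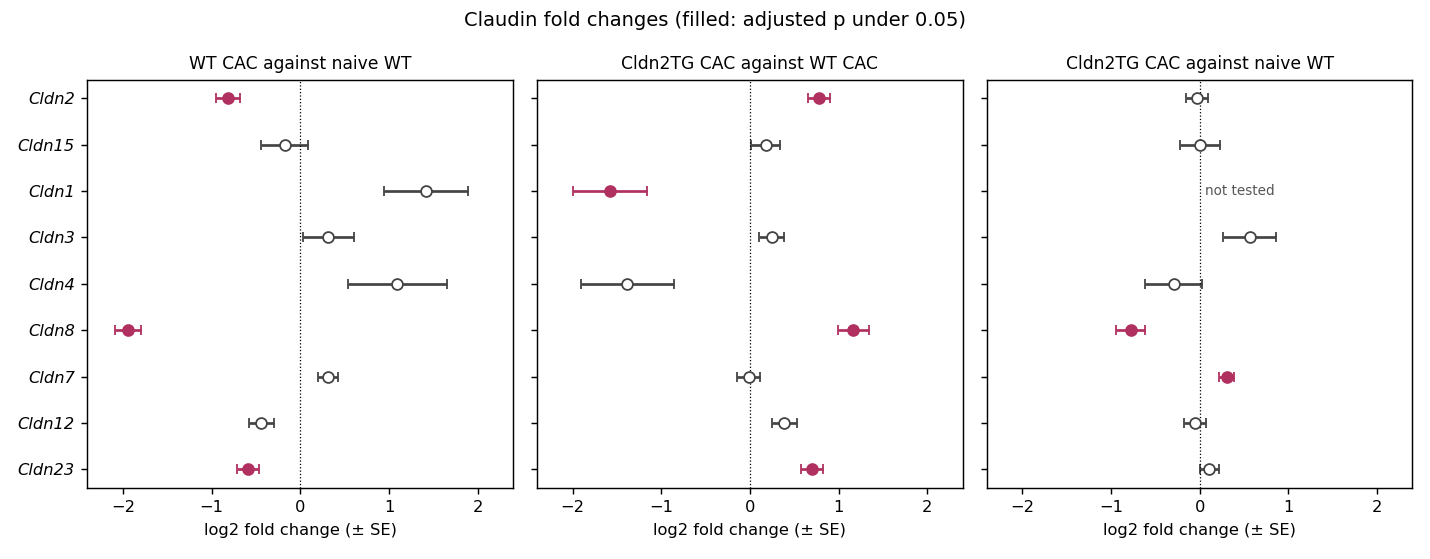
Log2 fold changes of 9 claudin genes in the 3 comparisons, with bars of 1 standard error on either side, from edgeR fits of 6 mice each. Filled points passed an adjusted p of 0.05, among them Cldn1, which entered the test only through the WT CAC mice. Cldn2, Cldn8 and Cldn23 lie left of 0 in WT CAC against naive WT and right of 0 in Cldn2TG CAC against WT CAC, as do Cldn12 and Cldn15, which are not filled.

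Of the pore-forming claudins, *Cldn2* fell in WT CAC colon and, in mice with the transgene, lay within the range of naive WT colon, while *Cldn15* was not called in any comparison. *Cldn2* (ENSMUSG00000047230, chromosome X from 139800828 to 139811386 on GRCm38, with its coding sequence in 1 exon) was 191, 259 and 245 CPM in naive WT mice, 119, 137 and 132 CPM in WT CAC mice and 208, 218 and 251 CPM in *Cldn2*TG CAC mice. Every WT CAC mouse lay below every mouse of both other groups, which overlapped each other. From naive WT to WT CAC the log2 fold change was -0.82 (SE 0.14, adjusted p = 0.0138), a level 1.76-fold lower. It was -0.94 without mouse 1 (adjusted p = 0.0293), whereas leaving out naive WT mouse 2 or mouse 3 ended the call, at an adjusted p of 0.0635 and 0.0554. A two-sided exact permutation test gave p = 0.1, below which groups of 3 cannot go. Between *Cldn2*TG CAC and naive WT mice the difference was -0.03 (SE 0.12, adjusted p = 0.897), and in *Cldn2*TG CAC against WT CAC it was 0.78 (SE 0.12, adjusted p = 0.0103), and leaving out mouse 8 or mouse 9 ended that call, at an adjusted p of 0.0580 and 0.0597. *Vil1*, the gene whose promoter drives the transgene, had means of 769, 692 and 770 CPM in naive WT colon, in WT CAC colon and with the transgene, and the adjusted p between both treated groups was 0.703. Scaled to the epithelial markers in place of total RNA, the log2 fold change of *Cldn2* was -0.83 in WT CAC against naive WT (adjusted p = 0.0137) and 0.68 between both treated groups (adjusted p = 0.0193).

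*Cldn15* (chromosome 5 from 136966616 to 136975858, with 5 coding exons), the cation channel of the small intestine, was 63.6, 77.4 and 125 CPM in naive WT mice, 90.7, 81.7 and 59.0 CPM in WT CAC mice and 86.8, 88.2 and 91.3 CPM in *Cldn2*TG CAC mice. The groups overlapped, and the *Cldn2*TG CAC mice were close to one another. Its log2 fold changes were -0.18 (SE 0.26, adjusted p = 0.680) in WT CAC against naive WT, 0.18 (SE 0.16, adjusted p = 0.599) between both treated groups and 0.01 (SE 0.22, adjusted p = 0.990) for *Cldn2*TG CAC against naive WT. Per kilobase, *Cldn2* was 1.77 ± 0.461 (SD, n = 3 mice) times the level of *Cldn15* in naive WT colon, 1.11 ± 0.300 times in WT CAC colon and 1.62 ± 0.118 times in *Cldn2*TG CAC colon.

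**Figure D3:**
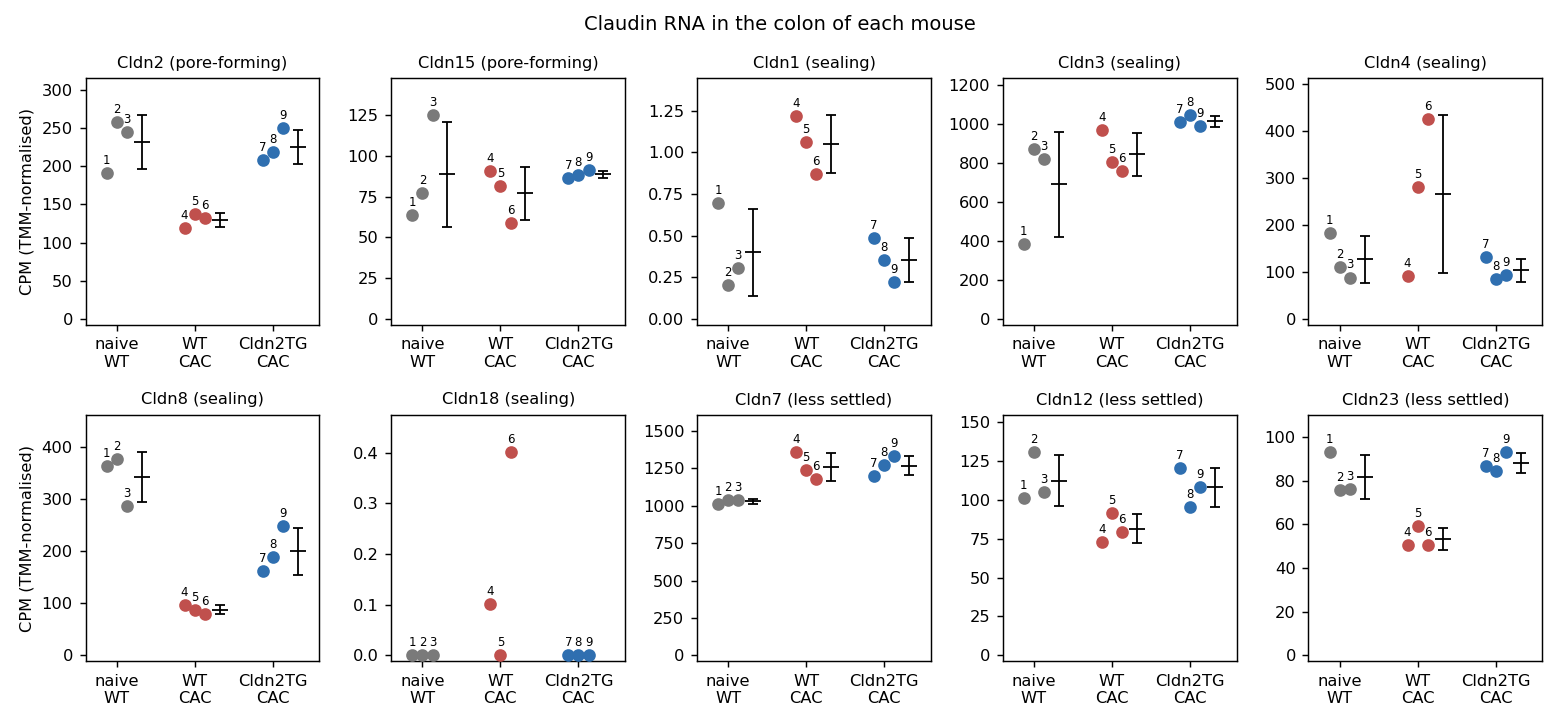
CPM of each of the 10 claudin genes in each of the 9 mice, numbered beside the points, with the mean and SD of 3 mice as the black bar (not drawn for Cldn18, which was at 0 in most mice). The WT CAC points of Cldn2, Cldn8, Cldn12 and Cldn23 lie below all others, Cldn4 is spread widely among WT CAC mice, and Cldn1 stays near 1 CPM or below.

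Of the sealing claudins, *Cldn8* showed the largest fall of the 9 members tested in WT CAC colon and an intermediate level in *Cldn2*TG CAC colon. Claudin-8 is a barrier claudin of the distal colon, known for holding back sodium. *Cldn8* (ENSMUSG00000050520, chromosome 16 from 88560828 to 88563183, with 1 coding exon) was 363, 378 and 288 CPM in naive WT mice, 96.7, 87.5 and 78.7 CPM in WT CAC mice and 161, 190 and 249 CPM in *Cldn2*TG CAC mice. None of the 3 groups overlapped another, and *Cldn2*TG CAC mice lay in between. The log2 fold change in WT CAC against naive WT was -1.94 (SE 0.15, adjusted p = 0.00159), or 3.85-fold lower, and the call held without each mouse in turn and under each other alternative. Between both treated groups it was 1.17 (SE 0.17, adjusted p = 0.00879), or 2.25-fold higher, and this call was lost without mouse 8 (adjusted p = 0.0520). For *Cldn2*TG CAC against naive WT it was -0.77 (SE 0.16, adjusted p = 0.0201), and the call was lost without mouse 1, 2 or 8, at an adjusted p of 0.0582, 0.0574 and 0.0787. Each pair of groups had a two-sided exact permutation p of 0.1. Per kilobase, *Cldn2* was 0.488 ± 0.115 (SD, n = 3 mice) times *Cldn8* in naive WT colon, 1.06 ± 0.166 times in WT CAC colon and 0.814 ± 0.0994 times in *Cldn2*TG CAC colon, and the WT CAC and *Cldn2*TG CAC mice overlapped in this ratio.

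*Cldn4* (chromosome 5 from 134945119 to 134946934, with 1 coding exon), a sealing claudin of many epithelia, was uneven among WT CAC mice. It was 183, 109 and 87.4 CPM in naive WT mice, 89.6, 279 and 425 CPM in WT CAC mice and 131, 84.4 and 93.4 CPM in *Cldn2*TG CAC mice. Mice 5 and 6 were above all others, while mouse 4 lay with the other groups. The log2 fold change was 1.09 (SE 0.56, adjusted p = 0.225) in WT CAC against naive WT and -1.38 (SE 0.53, adjusted p = 0.173) in *Cldn2*TG CAC against WT CAC. Without mouse 4 these were 1.50 (adjusted p = 0.0311) and -1.79 (adjusted p = 0.00133), so that mouse 4, which stood apart over all genes as well, decided both calls. The squamous epithelial keratin *Krt14* was 12.2, 21.2 and 28.1 CPM in WT CAC mice 4, 5 and 6, against at most 1.91 CPM in naive WT and 3.51 CPM in *Cldn2*TG CAC mice. The 8 squamous markers summed to 8.23 to 15.4 CPM in naive WT mice, 26.9 to 70.6 CPM in WT CAC mice and 9.97 to 12.7 CPM in *Cldn2*TG CAC mice, with 2, 1 and 2 of them at 0 in every mouse of the group. *Krt14* was 14.9-fold higher in WT CAC than in naive WT colon (adjusted p = 0.00492) and 7.51-fold lower with the transgene than in WT CAC colon (adjusted p = 0.00625). Without 1 mouse, its calls held in 6 and 5 of 6 fits. Of 4 squamous markers tested, 3 were under the threshold and higher in WT CAC than in naive WT colon, beside 8.04% of all genes, and 2 lower with the transgene than in WT CAC colon, beside 7.35%. At an unadjusted p under 0.05 and by DESeq2 there were 3 in each case, and 2 of the 4 entered these tests only through the WT CAC mice. *Sprr1a*, a gene of cornifying squamous cells, averaged 8.84, 10.7 and 7.40 CPM in the 3 groups and was not called in any comparison. The part of squamous cells in the values of *Cldn4* and *Cldn1* was not tested.

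*Cldn3* (chromosome 5 from 134986214 to 134987472, with 1 coding exon), an abundant sealing claudin of the gut, was 382, 871 and 819 CPM in naive WT mice, 968, 805 and 761 CPM in WT CAC mice and 1010, 1047 and 991 CPM in *Cldn2*TG CAC mice. The female naive WT mouse was far below the 8 others, and every *Cldn2*TG CAC mouse was above every other mouse. The log2 fold change in *Cldn2*TG CAC against naive WT was 0.57 (SE 0.30, adjusted p = 0.289) with mouse 1 and 0.28 (SE 0.11, adjusted p = 0.144) without it. In WT CAC against naive WT it was 0.32 (SE 0.29, adjusted p = 0.487) with mouse 1 and 0.02 (SE 0.17, adjusted p = 0.945) without it, and in *Cldn2*TG CAC against WT CAC it was 0.24 (SE 0.14, adjusted p = 0.343). *Cldn3* overlaps the antisense gene *Wbscr25*, and since the strand setting of the counting is not known, reads of the pair cannot be told apart.

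*Cldn1* (chromosome 16 from 26356642 to 26371841, with 4 coding exons), the main barrier claudin of the skin, was scarce. It had 14, 4 and 7 counts in naive WT mice, 24, 24 and 13 counts in WT CAC mice and 7, 7 and 3 counts in *Cldn2*TG CAC mice, or 0.401 ± 0.262, 1.05 ± 0.175 and 0.353 ± 0.130 CPM (SD, n = 3 mice). In CPM, WT CAC mice were above all mice of the other groups, which overlapped. The log2 fold change was 1.41 (SE 0.47, adjusted p = 0.0807) in WT CAC against naive WT, and 2.05 (adjusted p = 0.0614) without mouse 1, which held the most counts of the naive mice. With the transgene against WT CAC it was -1.58 (SE 0.41, adjusted p = 0.0476), in a test that *Cldn1* entered only through the mice where it was high. That p did not stay under the threshold with DESeq2 (adjusted p = 0.128), without the filter (adjusted p = 0.0840), with all 9 mice in the fit (adjusted p = 0.0590) or without any of the 6 mice (adjusted p from 0.0641 to 0.184). *Cldn18* (chromosome 9 from 99689461 to 99717267) had 2 counts in mouse 4, 6 counts in mouse 6 and 0 in the other 7 mice, and was not tested. It overlaps the antisense gene *Gm16004*, from which its reads cannot be told apart. The 6 gastric or airway epithelial markers, which accompany *Cldn18* in stomach and lung, summed to at most 0.737 CPM in any mouse. *Gkn1* averaged 0, 0.295 and 0 CPM and *Tff2* 0.147, 0.0741 and 0.0169 CPM in the 3 groups.

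Of the claudins with less settled roles, *Cldn23* followed the direction of *Cldn2* and *Cldn8*, as did *Cldn12*, whose changes are given below. Claudin-23 is found in differentiated cells of the colonic surface. *Cldn23* (ENSMUSG00000055976, chromosome 8 from 35824709 to 35826559, with 1 coding exon) was 93.3, 75.8 and 76.3 CPM in naive WT mice, 50.4, 59.3 and 50.4 CPM in WT CAC mice and 86.6, 84.3 and 93.2 CPM in *Cldn2*TG CAC mice. Every WT CAC mouse was below every mouse of the other groups. In WT CAC against naive WT the log2 fold change was -0.59 (SE 0.13, adjusted p = 0.0246), and the call was lost without mouse 1 (adjusted p = 0.0796), 2 (adjusted p = 0.0741), 3 (adjusted p = 0.0643) or 6 (adjusted p = 0.0659). Between both treated groups it was 0.70 (SE 0.12, adjusted p = 0.0130), a call that ended without mouse 8 or 9, at an adjusted p of 0.0621 and 0.0688. Against naive WT colon, *Cldn2*TG CAC colon differed by 0.11 (SE 0.11, adjusted p = 0.564).

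*Cldn7* (chromosome 11 from 69964779 to 69967885, with 4 coding exons), which lies along the lateral membrane and binds EPCAM, was even within groups and lay higher in both treated groups, by an amount near the threshold of the test. It was 1011, 1040 and 1040 CPM in naive WT mice, 1362, 1242 and 1177 CPM in WT CAC mice and 1201, 1271 and 1332 CPM in *Cldn2*TG CAC mice. All treated mice were above all naive WT mice, and the treated groups overlapped. The log2 fold change was 0.32 (SE 0.11, adjusted p = 0.0975) in WT CAC against naive WT, 0.31 (SE 0.09, adjusted p = 0.0483) in *Cldn2*TG CAC against naive WT and -0.01 (SE 0.13, adjusted p = 0.971) between the treated groups. The call against naive WT was lost under every alternative but DESeq2, with an adjusted p of 0.124 without mouse 1, and scaled to the epithelial markers it was 0.18 (adjusted p = 0.267).

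*Cldn12* (chromosome 5 from 5489537 to 5514958, with 1 coding exon), a claudin linked to calcium transport, was 101, 131 and 105 CPM in naive WT mice, 73.0, 91.7 and 79.3 CPM in WT CAC mice and 120, 95.1 and 108 CPM in *Cldn2*TG CAC mice. Every WT CAC mouse lay below all mice of the other groups. The log2 fold change in WT CAC against naive WT was -0.44 (SE 0.14, adjusted p = 0.0697), which passed with DESeq2 (adjusted p = 0.0348), without the filter (adjusted p = 0.0415) and with all 9 mice in the fit (adjusted p = 0.0423). With the transgene against WT CAC it was 0.39 (SE 0.14, adjusted p = 0.128), and against naive WT -0.05 (SE 0.13, adjusted p = 0.838).

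Summed by role, the pore-forming claudins were fewer relative to the sealing claudins in WT CAC colon than in both other groups, as a description of levels with no test. The sealing sum was 558, 913 and 821 CPM per kilobase in naive WT mice, 859, 830 and 872 in WT CAC mice and 943, 959 and 944 in *Cldn2*TG CAC mice. The pore-forming sum was 87.6, 114 and 133 CPM per kilobase in naive WT mice, 78.4, 79.6 and 67.6 in WT CAC mice and 103, 107 and 118 in *Cldn2*TG CAC mice. *Cldn3* made up most of the sealing sum, in which the fall of *Cldn8* does not show. The pore-forming sum holds only *Cldn2*, the gene of the transgene, and *Cldn15*, which was not called in any comparison. The log2 ratio of pore-forming to sealing claudins was -2.67, -3.00 and -2.63 in naive WT mice, -3.45, -3.38 and -3.69 in WT CAC mice and -3.19, -3.16 and -3.00 in *Cldn2*TG CAC mice. WT CAC mice did not overlap the other groups, and without the female mouse 1 the naive WT mean moved from -2.77 to -2.81. *Cldn2* alone made up 4.65% to 4.77% of the summed level of the members in naive WT mice, 2.13% to 2.57% in WT CAC mice and 3.60% to 4.14% in *Cldn2*TG CAC mice.

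**Figure D4:**
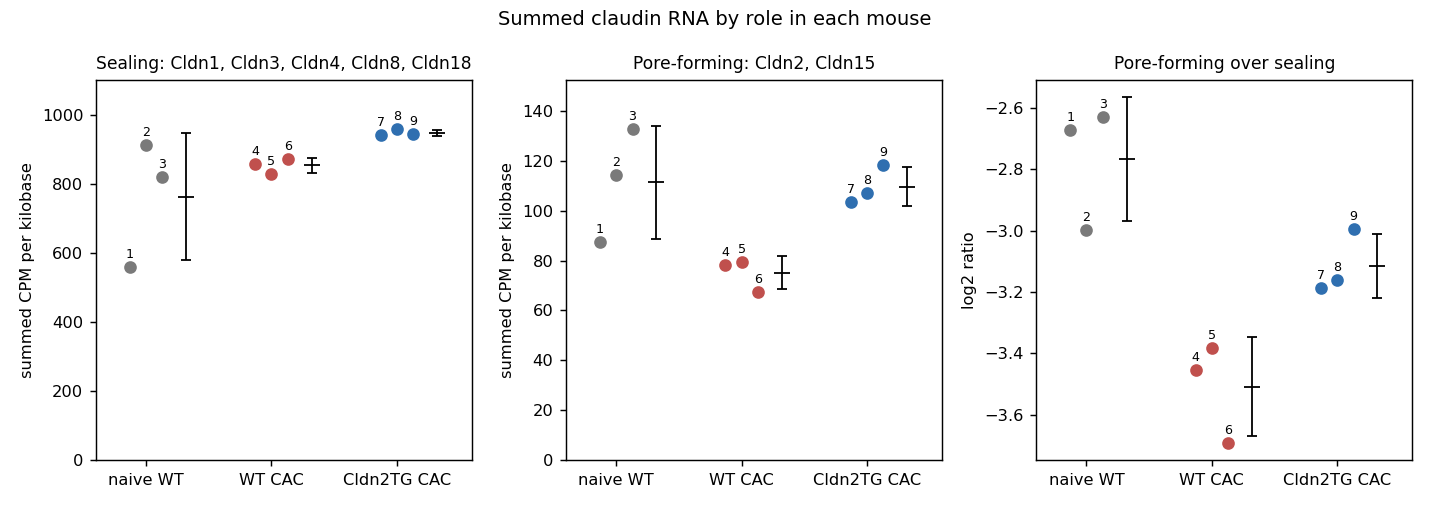
Summed CPM per kilobase of the sealing claudins (left) and pore-forming claudins (middle), from 0, and the log2 ratio of the second to the first (right), in each mouse, with the mean and SD of 3 mice as black bars. Naive WT mouse 1 has the lowest sealing sum, and the 3 WT CAC mice have the lowest pore-forming sums and the lowest ratios.

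Among the 25 other claudin genes, 3 passed the filter in each comparison. *Cldn10*, which exists as cation and anion channel isoforms, was 1.19, 0.753 and 0.434 CPM in naive WT mice, 2.79, 1.86 and 1.34 CPM in WT CAC mice and 0.551, 0.709 and 0.591 CPM in *Cldn2*TG CAC mice. With the transgene against WT CAC its log2 fold change was -1.70 (SE 0.39, adjusted p = 0.0300). This is not read as a call, since *Cldn10* entered that test through the WT CAC mice, where it was high, and had 8, 14 and 8 counts in *Cldn2*TG CAC mice, and the p did not stay under the threshold without mouse 5, 7, 8 or 9. *Cldn14*, a sealing claudin of the inner ear and kidney, was 9.90, 8.89 and 8.69 CPM in naive WT mice, 9.35, 12.2 and 9.44 CPM in WT CAC mice and 11.8, 14.4 and 17.6 CPM in *Cldn2*TG CAC mice, higher in the last than in naive WT (log2 fold change 0.68, SE 0.17, adjusted p = 0.0320), a call that held in 6 of 15 alternatives, was lost without mouse 1 (log2 fold change 0.74, adjusted p = 0.0532) and, scaled to the epithelial markers, did not pass (adjusted p = 0.0722). *Cldn5*, the claudin of the blood vessel wall, was 4.33, 5.27 and 4.43 CPM in naive WT mice, 3.10, 6.37 and 3.95 CPM in WT CAC mice and 2.41, 2.28 and 2.29 CPM in *Cldn2*TG CAC mice. Its mean was 2.33 CPM in *Cldn2*TG CAC against 4.68 CPM in naive WT colon (SE 0.22 on the log2 scale, adjusted p = 0.0183), a call lost without mouse 2, 3, 8 or 9, with all 9 mice in the fit and in lane 2. Endothelial markers, 5 in all, summed to 28.5 to 35.2 CPM in naive WT, 26.2 to 40.8 CPM in WT CAC and 12.7 to 15.8 CPM in *Cldn2*TG CAC mice, and 4 of 5 were called lower in *Cldn2*TG CAC than in naive WT colon and 3 of 5 lower than in WT CAC colon, beside 6.07% and 7.35% of all genes tested. The former included *Cdh5* (log2 fold change -1.69, SE 0.24, adjusted p = 0.00322) and *Pecam1* (-0.91, SE 0.20, adjusted p = 0.0179), whose calls held in 6 and 3 of 6 fits without 1 mouse. The part of vessel cells in the *Cldn5* values was not tested. *Cldn6*, a claudin of embryonic epithelia that was named after its values were seen, had 0, 0 and 1 counts in naive WT mice, 12, 10 and 4 counts in WT CAC mice and 0, 1 and 1 counts in *Cldn2*TG CAC mice, too few for the test.

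The other proteins of the tight junction were read from a list of 29 genes, all of which were tested except 1 in the last comparison. In WT CAC against naive WT, 6 were called lower and 1, which entered the test only through the WT CAC mice, was under the threshold and higher (10 and 2 at an unadjusted p under 0.05, and 6 and 2 by DESeq2), where 6.92% of all genes tested were called lower and 8.04% higher, with a list median of -0.18 against 0.02 over all genes. *Ocln*, which encodes occludin, a membrane protein of the junction, was 180, 204 and 173 CPM in naive WT mice, 128, 137 and 97.6 CPM in WT CAC mice and 226, 178 and 208 CPM in *Cldn2*TG CAC mice. It fell in WT CAC colon (log2 fold change -0.60, SE 0.14, adjusted p = 0.0330) and was higher in *Cldn2*TG CAC than in WT CAC colon (0.73, SE 0.16, adjusted p = 0.0259). *Ildr1*, a protein of tricellular contacts (log2 fold change -0.70, SE 0.14, adjusted p = 0.0196), and the polarity gene *Pard3* (-0.53, SE 0.14, adjusted p = 0.0406) also fell in WT CAC colon. Between both treated groups, 1 gene of the list, *Ocln*, was called higher and 2, among them the adhesion molecule *Jam2* (log2 fold change -1.53, SE 0.35, adjusted p = 0.0299), were under the threshold and lower, the other one again entering the test only through the WT CAC mice, with a median of 0.09 and beside 2.19% of all genes higher and 7.35% lower. At an unadjusted p under 0.05, 7 were higher and 3 lower in that comparison, and DESeq2 called 3 higher and 2 lower. Against naive WT colon, 3 were lower in *Cldn2*TG CAC colon, *Jam2* (-1.40, SE 0.26, adjusted p = 0.0102), *Jam3* (-1.23, SE 0.33, adjusted p = 0.0385) and the scaffold gene *Mpdz* (-1.22, SE 0.35, adjusted p = 0.0490), and 1, the polarity gene *Crb3* (0.35, SE 0.09, adjusted p = 0.0407), was higher, with a median of -0.03 against 0.00 and beside 6.07% of all genes lower and 3.92% higher. Here 7 were lower and 2 higher at an unadjusted p under 0.05, and 5 and 1 by DESeq2. Of these calls, *Jam2* against naive WT held without each of the 6 mice in turn and in 2 of 6 such fits between both treated groups, *Jam3* against naive WT in 2 of 6, *Ocln* in WT CAC against naive WT in 2 of 6 and 1 of 6 between both treated groups, *Ildr1* and *Pard3* in 2 of 6, *Mpdz* in 1 of 6 and *Crb3* in 0 of 6. The list had 7 calls in WT CAC against naive WT, and 0 without mouse 2, 1 without mouse 1 or 3, and 2 without mouse 6, in fits that called 135, 631, 404 and 1062 of all genes in place of 2310. With the treated groups compared it had 3, and 7 without mouse 4, 1 without mouse 5, and 0 without mouse 7, 8 or 9. All genes called were 2894 without mouse 4 and 460, 58 and 108 without mouse 7, 8 and 9, in place of 1421. Against naive WT it had 4, and 1 without mouse 1, 3, 8 or 9, and 2 without mouse 7, with 958, 525, 615, 813 and 1383 of all genes called in place of 1501. The part of vessel and muscle cells in these values was not tested, and endothelial *Cdh5* (log2 fold change -1.69) and *Pecam1* (-0.91) and smooth muscle *Acta2* (-1.43) were lower in *Cldn2*TG CAC than in naive WT colon as well.

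Of 16 transcription factors known to act on claudin promoters, 15 were tested in WT CAC against naive WT, with 3 under the threshold and higher and 1 called lower, beside 8.04% of all genes higher and 6.92% lower. At an unadjusted p under 0.05, 3 were higher and 5 lower, and DESeq2 called 3 in each direction. The higher ones were the Wnt-pathway factors *Lef1* and *Tcf7* and the epithelial repressor *Zeb2*, and the vitamin D receptor *Vdr* was the lower one. *Lef1* entered the test only through the WT CAC mice, and *Snai2*, an epithelial repressor, entered that between both treated groups in the same way, so that neither is read as a call. *Lef1* was 0.151 to 0.348 CPM in naive WT mice, 3.96, 6.99 and 15.7 CPM in WT CAC mice and 0.253 to 0.689 CPM in *Cldn2*TG CAC mice. *Tcf7* rose by 1.80 on the log2 scale (SE 0.30, adjusted p = 0.0138) and *Zeb2* by 1.07 (SE 0.23, adjusted p = 0.0237). *Vdr* averaged 431, 227 and 431 CPM in the 3 groups and differed by -0.90 (SE 0.24, adjusted p = 0.0453). Of 15 tested between both treated groups, *Vdr* (0.90, SE 0.22, adjusted p = 0.0366) and *Hnf4a* (0.63, SE 0.16, adjusted p = 0.0406), a factor of differentiated enterocytes, were called higher in *Cldn2*TG CAC colon. *Tcf7* (-1.44, SE 0.29, adjusted p = 0.0196) and *Zeb2* (-1.90, SE 0.28, adjusted p = 0.00863) were called lower. With *Lef1* and *Snai2*, 4 were under the threshold and lower, beside 7.35% of all genes lower and 2.19% higher, while 6 were higher and 5 lower at an unadjusted p under 0.05 and DESeq2 called 4 in each direction. *Snai2* was 0.351 to 0.995 CPM in naive WT mice, 0.660 to 1.86 CPM in WT CAC mice and 0.0739 to 0.276 CPM in *Cldn2*TG CAC mice. *Zeb2* is also a gene of leukocytes, and the part of leukocytes in the values of *Zeb2*, *Lef1* and *Tcf7* was not tested. Against naive WT colon, *Klf5* alone of 13 tested was called, lower in *Cldn2*TG CAC colon (-0.50, SE 0.12, adjusted p = 0.0259), beside 6.07% of all genes lower, with 3 lower at an unadjusted p under 0.05 and 1 by DESeq2. *Elf3*, with means of 759, 739 and 775 CPM, was abundant in all groups and not called in any comparison. Leaving out each mouse in turn, the WT CAC calls of *Tcf7* held in 3 of 6 fits, *Zeb2* in 1 and *Vdr* in 1, and those between both treated groups in 4 for *Zeb2*, 3 for *Tcf7*, 2 for *Vdr* and 2 for *Hnf4a*. The *Klf5* call held in 2.

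Markers of cells other than the epithelium differed between the groups as well. The 7 leukocyte markers summed to 50.8 to 125 CPM in naive WT, 198 to 295 CPM in WT CAC and 35.5 to 70.7 CPM in *Cldn2*TG CAC mice, with 5 called higher in WT CAC than in naive WT colon and 6 lower in *Cldn2*TG CAC than in WT CAC colon, beside 8.04% and 7.35% of all genes tested. *Coro1a* and *Lyz2* averaged 10.3 and 43.6 CPM in naive WT, 52.9 and 114 CPM in WT CAC and 9.81 and 24.2 CPM in *Cldn2*TG CAC colon. Without 1 mouse, the higher level of *Coro1a* in WT CAC colon was called in 5 of 6 fits and the lower one with the transgene in 6, and those of *Lyz2* in 2 and 2. Fibroblast markers, 5 in all, summed to 287 to 415 CPM in naive WT, 436 to 1093 CPM in WT CAC and 177 to 253 CPM in *Cldn2*TG CAC mice. None was called in WT CAC against naive WT, while 4 were higher at an unadjusted p under 0.05 and 3 by DESeq2. With the transgene 2 of 5 were called lower than in WT CAC colon, beside 7.35% of all genes, and all 5 were lower at an unadjusted p under 0.05 and by DESeq2. Against naive WT 1 was called lower, beside 6.07% of all genes, and 3 by either of these counts. The collagen gene *Col3a1* averaged 178, 320.1 and 97.0 CPM in the 3 groups, lower between both treated groups (adjusted p = 0.0353, held in 1 of 6 fits without 1 mouse), and *Dcn* averaged 54.7, 129.9 and 57.4 CPM. Of 5 smooth muscle markers, none was called in WT CAC against naive WT (1 lower at an unadjusted p under 0.05, 1 by DESeq2), and in *Cldn2*TG CAC colon 2 were called lower than in naive WT, again beside 6.07% of all genes, with 5 lower at an unadjusted p under 0.05 and 5 by DESeq2. *Acta2* averaged 556, 283 and 206 CPM and *Des* 544, 318 and 214 CPM in naive WT, WT CAC and transgenic mice. Of 5 nerve and glia markers tested against naive WT, 1, *Uchl1*, was called lower in WT CAC colon (log2 fold change -1.18, SE 0.29, adjusted p = 0.0337, held in 1 of 6 fits without 1 mouse), with 3 lower at an unadjusted p under 0.05 and 2 by DESeq2, beside 6.92% of all genes called lower. With the transgene, all 5 were under the threshold and lower than in naive WT colon (5 at an unadjusted p under 0.05, and 4 by DESeq2), beside 6.07% of all genes, of which 2 entered the test only through the naive WT mice. *Uchl1* averaged 18.9, 8.16 and 6.24 CPM in the 3 groups and *Elavl4* 3.67, 1.21 and 1.11 CPM. The part of each cell type in the claudin values was not tested.

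Markers of the epithelium itself were read as well. Of 7 epithelial markers, none was called in WT CAC against naive WT (2 at an unadjusted p under 0.05, and 1 by DESeq2) or in *Cldn2*TG CAC against WT CAC (0 at an unadjusted p under 0.05, and 0 by DESeq2). *Krt8* was called higher in *Cldn2*TG CAC than in naive WT colon (log2 fold change 0.43, SE 0.11, adjusted p = 0.0384), a call that held in 1 of 6 fits without 1 mouse, and *Krt19* averaged 4037, 4324 and 4685 CPM. The 7 surface colonocyte markers summed to 4839 to 7475 CPM in naive WT, 2431 to 5199 CPM in WT CAC and 6053 to 8601 CPM in *Cldn2*TG CAC mice, none at 0. Of these, edgeR called 2 of 7 lower in WT CAC than in naive WT colon, *Aqp8* and *Car4*, beside 6.92% of all genes tested, with 4 lower at an unadjusted p under 0.05 and 3 by DESeq2. The same 2 were called higher with the transgene than in WT CAC colon, beside 2.19% of all genes, with 4 higher at an unadjusted p under 0.05 and 4 by DESeq2. *Car4*, a carbonic anhydrase of the colonic surface, averaged 1557, 487 and 1845 CPM in the 3 groups, and without 1 mouse its calls held in 2 and 3 of 6 fits. *Krt20*, a keratin of differentiated surface cells, averaged 1025, 1095 and 1316 CPM and was not called in any comparison (log2 fold change 0.12 in WT CAC against naive WT, adjusted p = 0.567). Of 6 goblet markers, 1 was called in those directions, *Clca1*, at 3984, 2010 and 4014 CPM, and its calls held in 4 and 1 of 6 fits without 1 mouse. At an unadjusted p under 0.05, 2 goblet markers were lower in WT CAC than in naive WT colon and 1 was higher with the transgene, by DESeq2 1 and 1, and the shares of all genes called are those given for the surface markers. *Fcgbp* averaged 3246, 2687 and 3351 CPM. The 5 crypt base and stem markers summed to 113 to 131 CPM in naive WT, 100 to 286 CPM in WT CAC and 128 to 131 CPM in *Cldn2*TG CAC mice, with *Smoc2* at means of 70.4, 72.7 and 61.1 CPM and *Axin2* at 34.8, 74.5 and 44.3 CPM. Of 4 tested, 1, *Ascl2*, was called higher than in naive WT colon in both treated groups, beside 8.04% of all genes in WT CAC and 3.92% in *Cldn2*TG CAC colon. In each of these comparisons 2 were higher at an unadjusted p under 0.05 and 2 by DESeq2, and 1 was lower at an unadjusted p under 0.05 with the transgene.

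Position along the colon was read from *Hox* genes. Of 5 distal colon markers, none was called in WT CAC against naive WT (2 at an unadjusted p under 0.05, 1 by DESeq2) or in *Cldn2*TG CAC against WT CAC (0 by both counts). Against naive WT 2 were called higher in *Cldn2*TG CAC colon, beside 3.92% of all genes, with 3 higher and 1 lower at an unadjusted p under 0.05 and 2 higher by DESeq2. Of these, *Hoxd13* (log2 fold change 0.63, SE 0.11, adjusted p = 0.00691), was called without each mouse in turn, while *Hoxb13* averaged 692, 575 and 749 CPM. Proximal colon markers summed to at most 2.35 CPM in any mouse, with *Hoxb6* at means of 0.990, 0.726 and 0.502 CPM and *Hoxb7* at 0.394, 0.592 and 0.362 CPM.

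Across the 9 mice, *Cldn2* and *Cldn8* had a Pearson r of 0.866 in log2 CPM, *Cldn2* and *Cldn12* 0.864, *Cldn2* and *Cldn23* 0.845, *Cldn8* and *Cldn23* 0.808, and *Cldn1* and *Cldn2* -0.963. The points share the 3 groups, so that these values describe the group differences again. Among 13722 genes, those most like *Cldn2* over the 9 mice were *Hmgn5* (r = 0.981), *Uqcc1* (0.971) and *Gm9826* (0.970). The gene most like *Cldn8* was *Armcx3* (0.986), like *Cldn23* *Lipg* (0.986), like *Cldn7* *Cacnb3* (0.980), like *Cldn4* *Ripply3* (0.977), like *Cldn12* *Gdpgp1* (0.977), like *Cldn1* *Cd72* (0.975), a gene of B cells, and like *Cldn15* *Gm38394* (0.931). Most like *Cldn3* was *Eif2s3y* (0.944), a gene of the Y chromosome, which the female mouse 1 lacks.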

How the data were processed

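RNA from the colon of 9 mice was sequenced by the authors on a NovaSeq6000, each library in 2 lanes. The deposited values are whole-number read counts per gene, without normalization, made with featureCounts of Subread; the aligner is TopHat2 in the study's methods and HISAT2 in the submitters' processing notes, with GRCm38 as genome. Versions and strand setting are not given in the sources used here. All 18 columns were mapped by title. Lanes of a library, whose chi-square divided by its degrees of freedom was 0.995 to 1.06 (16.8 to 66.3 between mice of a group), were added up. Symbols came from GENCODE M21, and 40773 of 47224 genes with a symbol had the same start and end there. Of the members, *Cldn23* did not, and its coordinates are those of the count table. No 50-base stretch of a member's transcripts was shared with another claudin.

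Each comparison was fitted on its 6 mice with edgeR 4.0.16 in R 4.3.3 (TMM, filterByExpr with minimum count 10 and minimum total 15, robust quasi-likelihood test, Benjamini-Hochberg adjustment over all genes tested). SEs were derived from the test statistic. The labels number the libraries 1 to 9 without naming the animals, so that p-values measure the spread between these libraries. Levels between genes are CPM divided by the gene length in the count table. The members, roles and gene lists were chosen with earlier results of these data known. All members were named. So were other claudins passing the filter, the 3 called tight junction partners of largest change in each direction, called regulators, the 2 genes of largest mean CPM in the regulator list and in each marker list, and the genes of highest correlation with a member (3 for *Cldn2*). *Vil1*, *Xist*, *Aqp8*, *Ascl2* and *Cldn6* were named after their values were seen, and other genes are counted. One tight junction partner that falls under this rule is counted but not reported here by name. Alternatives were DESeq2 1.42.0, library size only, upper-quartile factors, scaling to the epithelial markers, no filter, 10 counts in every mouse, all 9 mice in 1 fit, single lanes and leaving out each mouse. On simulated data, 200 genes were changed by 2 on the log2 scale, more than any claudin call outside the alternatives. Of these genes, edgeR called 197, 190 and 197 in WT CAC against naive WT, *Cldn2*TG CAC against WT CAC and *Cldn2*TG CAC against naive WT, with 20, 12 and 16 unchanged genes called. Figures were made with Python 3.11.15 and matplotlib 3.10.9.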

Additional observations from a re-analysis of the deposited data

How the results depend on the processing

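The fall of *Cldn8* in WT CAC colon was called under every alternative (log2 fold change from -2.07 to -1.87). The number of claudins called in WT CAC against naive WT was 3, and 5 with DESeq2, which added *Cldn7* and *Cldn12* and called 3220 of all genes against 2310. It was 4 without the filter and with all 9 mice, each adding *Cldn12*. Leaving out 1 mouse gave 1 to 4. Between both treated groups it was 4, counting *Cldn1*, which entered the test only through the WT CAC mice, and without 1 mouse 0 to 4. Without mouse 8, 58 of 15186 genes were called, none of them a claudin of the 10. Against naive WT colon, *Cldn2*TG CAC colon had 2, and 1 with library size only, upper-quartile factors, epithelial scaling, no filter, 10 counts in every mouse, all 9 mice, lane 1 or lane 2, and 0 to 1 without 1 mouse. Of the tight junction partners, 7 were called in WT CAC against naive WT (0 to 10 without 1 mouse, 0 without mouse 2). Between both treated groups 3 were called, 5 with DESeq2 or all 9 mice and 0 to 7 without 1 mouse. For *Cldn2*TG CAC against naive WT 4 were called, 7 with library size only, 1 with all 9 mice, 2 with lane 1, 1 with lane 2 and 1 to 3 without 1 mouse. Library size and epithelial scaling moved the median of all genes in this comparison to -0.11 and -0.12.

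Changes near 0 turned sign, none of them called. With *Cldn2*TG CAC set against naive WT, *Cldn15* (0.01) became -0.11 with library size, -0.0060 with upper-quartile factors, -0.11 with epithelial scaling, -0.0087 with 10 counts in every mouse and -0.0085 with lane 1, and -0.18 to 0.33 without 1 mouse, and *Cldn23* (0.11) became -0.0034 with library size and -0.019 with epithelial scaling. Without 1 mouse, the log2 fold change in this comparison ran from -0.64 to 0.095 for *Cldn10*, -0.15 to 0.075 for *Cldn12*, -0.15 to 0.055 for *Cldn2* and -0.51 to 0.083 for *Cldn4*. In WT CAC against naive WT it ran from -0.37 to 0.14 for *Cldn15* and -0.38 to 0.17 for *Cldn5*, which was 0.12 with lane 2. *Cldn7* in *Cldn2*TG CAC against WT CAC was 0.0059 without the filter and -0.049 to 0.057 without 1 mouse. The cause of these moves was not tested. *Cldn1*, with 3 to 24 counts a mouse, and *Cldn18*, with at most 6, are limited by depth. *Cldn1* could not be fitted with 10 counts in every mouse, with lane 1 in WT CAC against naive WT or, between both treated groups, in single lanes.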
